A study of Mus musculus with 8 samples.

Results

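The genes described here are 7 members of a programme that is active in fetal tissues: the paralogues Lin28a and Lin28b, the high mobility group genes Hmga1 and Hmga2, and the RNA-binding protein genes Igf2bp1, Igf2bp2 and Igf2bp3. They were taken as every row of the deposited tables whose symbol equals one of these names, which gave 7 of 17551 symbols, each with 1 RefSeq transcript. The set was chosen by the Ring1b KO over WT ratio of Lin28a, which was among the largest falls shared by the contexts of this study. The KO and WT values of the members are therefore given as a description, with no test. RNA was sequenced from lineage-negative mouse bone marrow cells, a fraction enriched for haematopoietic stem and progenitor cells, treated for 72 h with 4-hydroxytamoxifen (OHT, labelled Ring1b KO) or ethanol (labelled Ring1b WT). There are 4 contexts: cells transduced with the homeobox gene HOXA9, with the leukaemia fusion gene PML-RARa or with the fusion gene MLL-AF9, and cells labelled as not transduced (NT).

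Each of the 4 contexts has 1 KO library and 1 WT library, 8 in all. Every library, controls included, comes from C57BL/6 cells that the labels give as lacking Ring1a and Cdkn2a, so by label Ring1b is the remaining RING1 ligase of PRC1 in the WT cells. The sources used here do not name the driver of the recombinase, the age of the mice or the number of mice pooled, and the OHT treatment cannot be told apart from the loss of Ring1b. The labels give the NT cells as carrying no transduced gene, while the headers of their table read "Empty".

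Between 4226751 and 6998223 reads per library were recovered from the values. The transcript of Rnf2, the gene for Ring1b, had 856, 771, 767 and 802 normalised reads in the KO libraries of HOXA9, PML-RARa, MLL-AF9 and NT, against 896, 990.4, 769.8 and 666 in their WT libraries. A count over the whole transcript can keep reads from outside a deleted part, so these values check neither label. Ring1, the gene for Ring1a, had 47.1, 23.8, 77.8 and 43.6 in the same KO libraries and 190.9, 179.9, 166 and 109 in the WT libraries, so reads were counted on it in cells labelled as lacking it. Of 15 stem and progenitor markers, 14 were analysed, with summed values of 8424 to 12128 in the KO libraries and 9962 to 13061 in the WT libraries. Among them the 1 analysed transcript of Kit, the stem cell factor receptor, lay between 1.36 and 34.5 in the 8 libraries. This does not describe the gene as a whole. Macrophage markers (13 of 13 analysed) summed to 12095 to 21231 in the KO libraries and 1881 to 4450 in the WT libraries. Proliferation genes (18 of 18) summed to 8554 to 15546 in the KO libraries and 20716 to 29443 in the WT libraries. In bulk RNA, fewer cells of a type and less RNA per cell cannot be told apart, and the part of these shifts in the values of the 7 genes was not tested.

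LIN28 proteins bind the precursors of the let-7 microRNAs and block their maturation, and mature let-7 represses mRNAs that carry its sites, among them those of the LIN28 genes, HMGA2 and the IGF2BP genes. HMGA proteins are small chromatin proteins that bind AT-rich DNA and bend it. IGF2BP proteins bind mRNAs and affect their stability, transport and translation. In mouse blood, Lin28b, Hmga2 and Igf2bp3 mark fetal stem and progenitor cells and are low in adult ones, and PRC1 is known as a repressor of developmental genes.

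The let-7 sequences and their matches in the members are shown because they join the genes of this programme. Of 11 mature let-7 and miR-98 microRNAs listed in RefSeq on GRCm38.p6, 10 share the seed GAGGUAG (bases 2 to 8 of the mature microRNA), and let-7j has GAGGUAU. The shared seed is shown in capitals for 3 of them:
mmu-let-7a-5p: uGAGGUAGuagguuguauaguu
mmu-let-7g-5p: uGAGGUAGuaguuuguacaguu
mmu-miR-98-5p: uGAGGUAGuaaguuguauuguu

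The complement of this seed, CTACCTC, was searched on the transcript strand of the 3′ untranslated regions (UTRs) that GENCODE M21 (GRCm38) gives for the transcripts of the tables. It occurred in 6 of the 7 genes: 4 times each in Lin28b, Hmga2 and Igf2bp1, 2 times in Lin28a and 1 time each in Igf2bp2 and Igf2bp3. All 6 had at least 1 match of 8 bases, in which an A follows the 7 letters. Of 17194 transcripts with such a region, 8.69% held the 7 letters and 3.01% held the 8. Longer regions hold more matches: among the 828 whose region is within 10% of the length of that of Hmga2 (2977 bases), 15.3% held at least 1 and 0.121% held 4 or more. By the same measure as many matches were held by 0.621% of regions for Igf2bp1, 0.723% for Lin28b and 2.49% for Lin28a. For Igf2bp3 and Igf2bp2, with 1 match each, the shares were 14.5% and 11.04%. Each of these sets counts the gene itself, and for Hmga2 and Igf2bp1 no other region in the set held as many. The region of the Hmga1 transcript in the tables was 317 bases long and had no match. The 8-base matches are shown for these 6 genes, with the match in capitals and the position of its first base counted from the start of the region in the sentences after them:
Lin28a, first match: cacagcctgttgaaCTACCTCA
Lin28a, second match: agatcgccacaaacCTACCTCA
Lin28b: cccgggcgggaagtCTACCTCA
Hmga2: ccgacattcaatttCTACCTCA
Igf2bp1, first match: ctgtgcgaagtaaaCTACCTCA
Igf2bp1, second match: agcagtgctattaaCTACCTCA
Igf2bp1, last match: tataaatggatgaaCTACCTCA
Igf2bp2: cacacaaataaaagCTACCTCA
Igf2bp3: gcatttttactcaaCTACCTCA

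The matches start at bases 909 and 1547 in Lin28a, at base 36 in Lin28b, at base 21 in Hmga2, at bases 1715, 4136 and 4730 in Igf2bp1, at base 1313 in Igf2bp2 and at base 548 in Igf2bp3. These genes lie on chromosomes 4 (Lin28a), 10 (Lin28b and Hmga2), 11 (Igf2bp1), 16 (Igf2bp2) and 6 (Igf2bp3). A match describes the letters and was not tested as a site in these cells.

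**Figure D1:**
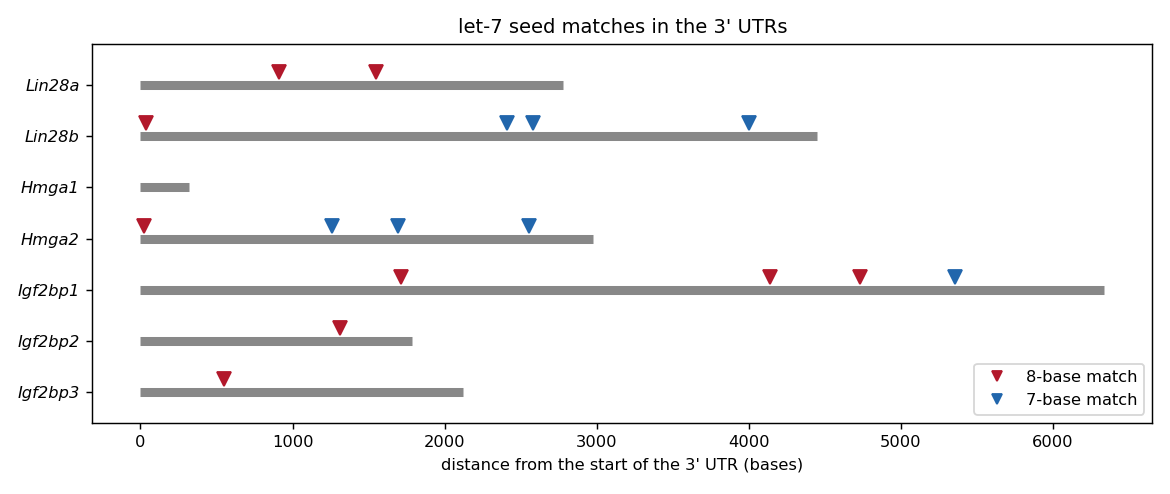
Matches to the let-7 seed along the 3′ UTR of each gene, with the distance from the start of the region in bases on the x axis, red marks for 8-base and blue marks for 7-base matches. The matches of Lin28b and Hmga2 begin at bases 36 and 21, and Hmga1 has none.

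Lin28a, the blocker of let-7 maturation known from embryonic stem cells, was lower in the KO library of all 4 contexts. Its value was 76.0, 14.3, 131 and 31.2 normalised reads in the KO libraries of HOXA9, PML-RARa, MLL-AF9 and NT, against 238, 130.1, 624 and 570.02 in the WT libraries. The highest KO value, in MLL-AF9, lay just above the lowest WT value, in PML-RARa, so the groups overlap by this pair alone, while within each context the libraries stand well apart. The fold in favour of WT was 3.13 in HOXA9 (95% interval 2.45 to 4.05), 9.11 in PML-RARa (5.05 to 18.1), 4.76 in MLL-AF9 (3.83 to 5.97) and 18.3 in NT (12.7 to 27.3). These exact conditional intervals and those below cover counting error only. The mean log2 ratio, on the log2(value + 1) scale used for all log2 ratios here, was -2.78 ± 1.09 (SD, n = 4 contexts).

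Lin28b, the paralogue that marks fetal haematopoiesis in mice, did not follow Lin28a in every context. Its value was 92.3, 16.7, 84.6 and 23.9 in the KO libraries of HOXA9, PML-RARa, MLL-AF9 and NT, against 153, 6.70, 346 and 75.3 in the WT libraries. It was lower in KO in 3 contexts and higher in PML-RARa, where both values rest on 14 reads in KO and 7 in WT, with a fold of 2.49 (95% interval 0.940 to 7.28). The largest gap was 4.09-fold lower in KO, in MLL-AF9 (interval 3.11 to 5.46). The groups overlap widely, and the mean log2 ratio was -0.79 ± 1.43 (SD, n = 4 contexts), smaller than its own spread.

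Scaled to transcript length, Lin28a was the more abundant of the LIN28 genes in all 8 libraries. Together they stood at 38.8, 7.16, 53.0 and 13.3 normalised reads per kb in the KO libraries of HOXA9, PML-RARa, MLL-AF9 and NT, against 96.3, 38.4, 242 and 176.6 in the WT libraries. The share of Lin28b in that sum was 44.1%, 43.1%, 29.5% and 33.2% in the KO libraries and 29.4%, 3.23%, 26.5% and 7.89% in the WT libraries. The share moves with the level of Lin28a, on which the set was chosen. Its exact binomial 95% intervals, for counting error only, overlapped in MLL-AF9 (23.0% to 36.8% in KO, 23.9% to 29.2% in WT). They did not overlap in the other contexts, although in PML-RARa the shares rest on 14 Lin28b reads in KO and 7 in WT.

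**Figure D2:**
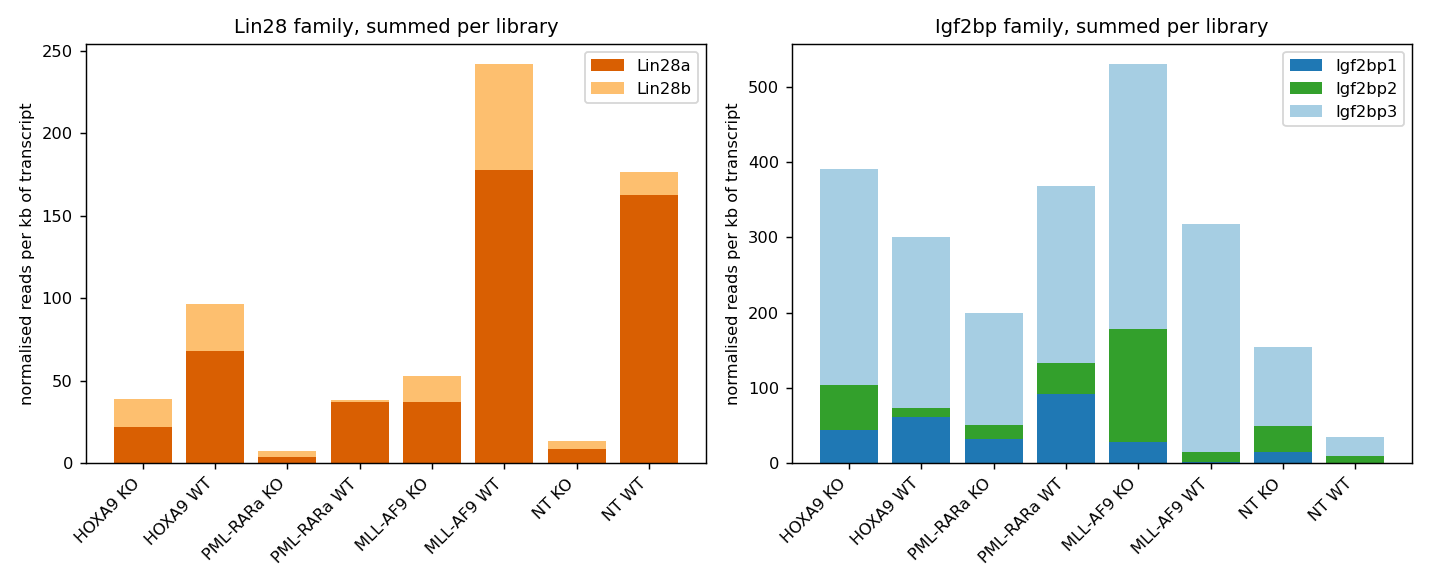
Normalised reads per kb of transcript, stacked by gene, for the Lin28 family (left) and the Igf2bp family (right) in each library, KO left of WT. The summed LIN28 level is lower in KO in each context, from 7.16 to 53.0 against 38.4 to 242, while the Igf2bp sum is higher in KO in HOXA9, MLL-AF9 and NT and lower in PML-RARa.

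Hmga2, the fetal HMGA gene and a classical let-7 target, went in opposite directions between contexts. Its value was 176, 151, 184 and 267 in the KO libraries of HOXA9, PML-RARa, MLL-AF9 and NT, against 468, 402, 90.0 and 194 in the WT libraries. It was 2.67-fold lower in KO in HOXA9 (95% interval 2.26 to 3.16) and 2.66-fold lower in PML-RARa (2.18 to 3.27), and 2.05-fold higher in MLL-AF9 (1.55 to 2.72). In NT it was 1.38-fold higher in KO (1.15 to 1.65). The KO values lie within a factor of 1.77 of each other and the WT values within 5.20, and the mean log2 ratio was -0.33 ± 1.26 (SD, n = 4 contexts). Hmga2-ps1, listed as a pseudogene with its own row, had 31.6 to 124 normalised reads, and the sources used here do not say how reads were divided between near-identical copies.

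Hmga1, expressed in many proliferating cells, could not be described. The transcript in the tables (NM_001166545) had 1 to 4 reads in every library, and its mean value of 2.12 is under the minimum of 20 used for tests. Other Hmga1 transcripts were not analysed here, so these counts say nothing of the gene as a whole.

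Igf2bp1, whose product binds the coding region of Myc mRNA and other growth-related mRNAs, had the widest range of the set. Its value was 375, 270.2, 233 and 123 in the KO libraries of HOXA9, PML-RARa, MLL-AF9 and NT, against 519, 772, 10.6 and 4.96 in the WT libraries. The WT libraries of MLL-AF9 and NT held 10 and 6 reads, far below all other libraries. In KO the gene was 22.0-fold higher in MLL-AF9 (95% interval 11.7 to 46.8) and 24.7-fold higher in NT (11.02 to 68.7). It was 2.86-fold lower in PML-RARa (2.46 to 3.33) and 1.39-fold lower in HOXA9 (1.22 to 1.57). The WT libraries spanned a factor of 156 and the KO libraries a factor of 3.06, and the mean log2 ratio of 1.68 ± 3.12 (SD, n = 4 contexts) stands for none of the contexts.

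Igf2bp2, the family member that stays expressed in adult tissues and that HMGA2 is known to activate in muscle, was higher in KO in 3 contexts. Its value was 233, 71.4, 587 and 135 in the KO libraries of HOXA9, PML-RARa, MLL-AF9 and NT, against 46.5, 159, 54.0 and 35.6 in the WT libraries. The fold was 5.002 in HOXA9 (95% interval 3.73 to 6.80), 10.9 in MLL-AF9 (8.11 to 14.8) and 3.797 in NT (2.67 to 5.49), while PML-RARa was 2.22-fold lower in KO (1.65 to 3.04). The PML-RARa pair is the inverse of the others: its KO library is the lowest KO value and its WT library the highest WT value. The mean log2 ratio was 1.62 ± 1.95 (SD, n = 4 contexts).

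Igf2bp3, an oncofetal member often found in leukaemias with MLL rearrangements, was the most abundant of the family per kb in all 8 libraries, with 63.9% to 95.3% of the family sum. Its value was 1243, 645, 1531 and 457 in the KO libraries of HOXA9, PML-RARa, MLL-AF9 and NT, against 988, 1023, 1318 and 108 in the WT libraries. The NT WT library is low and all other libraries lie at 457 or above. In NT the gene was 4.22-fold higher in KO (95% interval 3.46 to 5.17), whereas HOXA9 (1.26-fold higher, 1.16 to 1.36), MLL-AF9 (1.16-fold higher, 1.07 to 1.26) and PML-RARa (1.59-fold lower in KO, 1.43 to 1.76) were within 2-fold. The mean log2 ratio was 0.49 ± 1.14 (SD, n = 4 contexts).

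**Figure D3:**
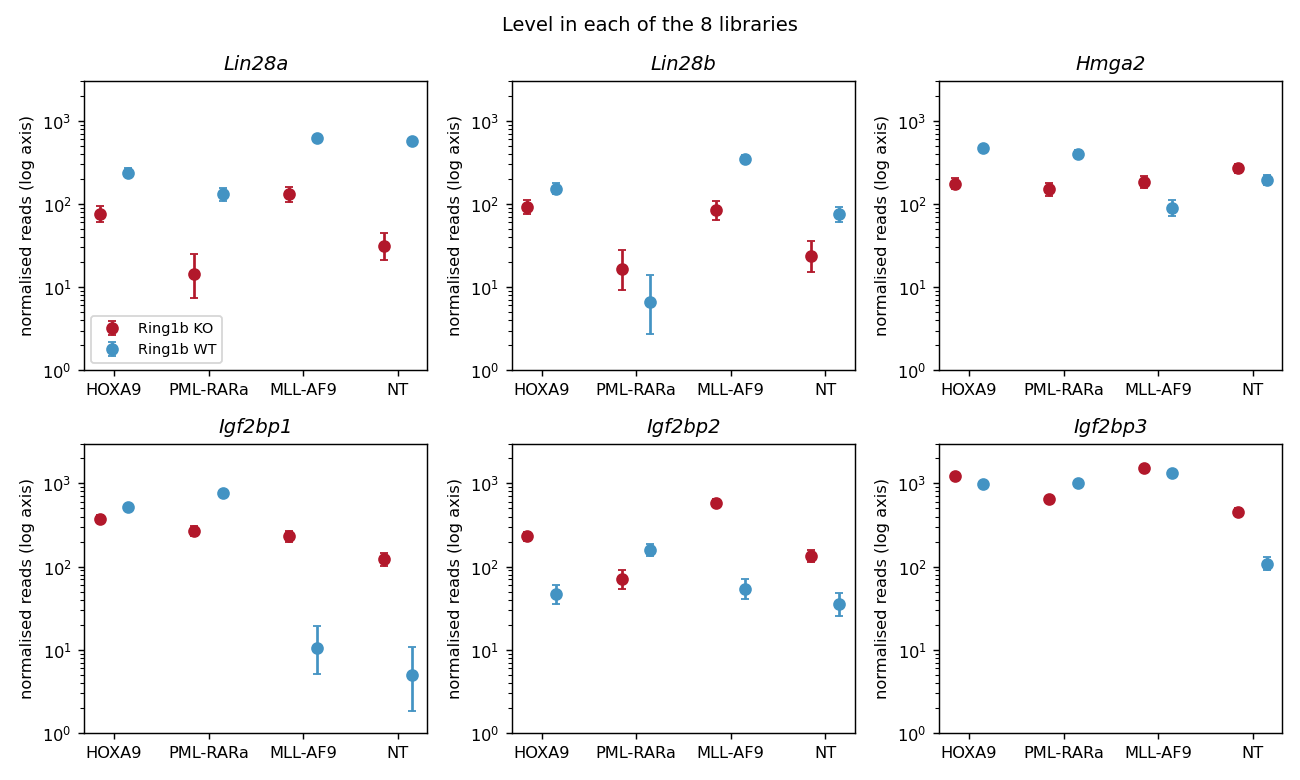
Normalised reads of the 6 measured genes in each library on a log axis, KO (red) left of WT (blue) in each context, with bars for the 95% Poisson interval of the reads. Lin28a is lower in KO in all 4 contexts, and Igf2bp1 is at 10.6 and 4.96 in the WT libraries of MLL-AF9 and NT against 123 to 375 in the KO libraries.

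Counted by context, among members where KO or WT reached 20 normalised reads, number and direction differed. In HOXA9, 1 of 6 was at least 2-fold higher in KO and 2 at least 2-fold lower, beside 9.13% and 6.39% of all transcripts that reached it. In PML-RARa, 0 of 5 were higher and 4 lower, beside 9.06% and 13.7%. In MLL-AF9, 3 of 6 were higher and 2 lower, beside 14.6% and 16.0%. In NT, 3 of 6 were higher and 2 lower, beside 13.8% and 8.76%. There is 1 library per group and the set was chosen on this contrast, so these counts are a description of the libraries. No gene other than Lin28a was lower in KO in every context, and in PML-RARa the members lower in KO were Lin28a, Hmga2 and all of the Igf2bp genes.

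**Figure D4:**
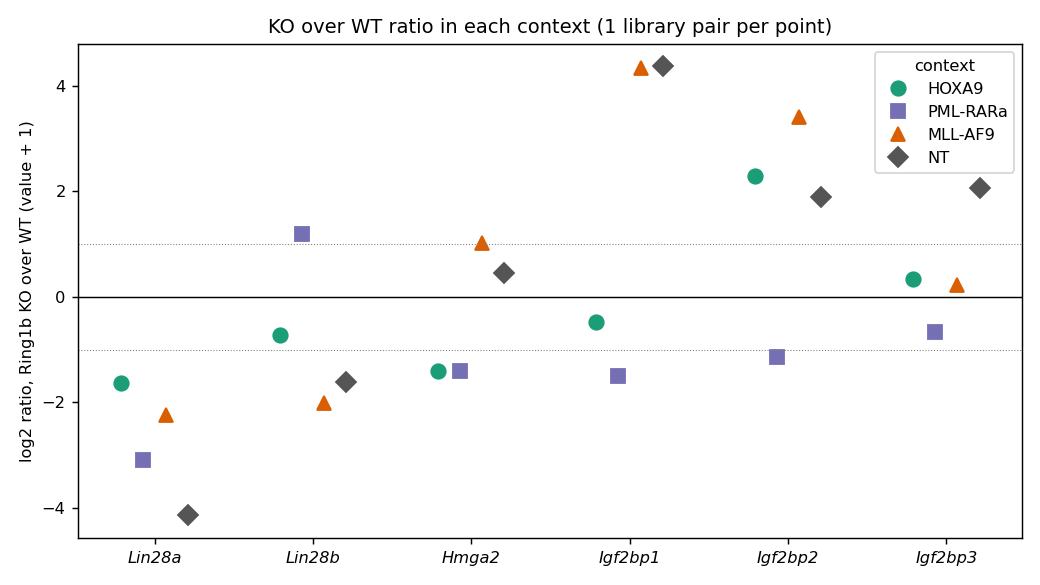
The log2 ratio of KO over WT (value + 1) for the 6 measured genes, 1 point per context, with dotted lines at 2-fold. The points of Lin28a all lie below 0, from -4.15 in NT to -1.64 in HOXA9, and those of Igf2bp1 split between 4.37 and 4.34 (NT and MLL-AF9) and -0.47 and -1.51 (HOXA9 and PML-RARa).

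The range between contexts was narrower among KO than among WT libraries for 4 of the 6 measured genes. For Lin28b the highest value was 5.54 times the lowest among KO libraries and 51.7 times among WT libraries, and for Igf2bp3 these factors were 3.35 and 12.2, beside those of Hmga2 and Igf2bp1 above. Lin28a (9.17 in KO, 4.79 in WT) and Igf2bp2 (8.22 in KO, 4.46 in WT) had the wider range in KO. Over the 10599 transcripts whose mean over the libraries reached 20, 45.1% had the narrower range in KO.

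The choice of members used the KO over WT ratio of Lin28a and not the level between contexts, which was tested here. The error of this test is the spread of the KO over WT ratio between contexts. Lin28a was chosen for a fall shared by the contexts, so its results in this test are not independent of the choice. The limma fit took the KO and WT library of a context as its samples, with genotype as a block, and its Benjamini-Hochberg adjustment covered all 10599 transcripts. None of the 6 measured genes passed the F test over the 4 contexts (232 transcripts did, 2.19%), and their adjusted p lay between 0.18 and 0.77. At an unadjusted p under 0.05 there were 3, namely Lin28a, Lin28b and Igf2bp3. edgeR on the recovered reads called 0 (3 unadjusted), beside 2.97% of all transcripts. DESeq2 called these 3 genes (3 unadjusted), beside 15.1% of all transcripts. Igf2bp3 averaged 2.31 ± 0.65 (HOXA9 minus NT, log2 difference ± SE), 1.86 ± 0.65 (PML-RARa minus NT) and 2.67 ± 0.65 (MLL-AF9 minus NT). Lin28b averaged 1.46 ± 0.81, -1.90 ± 0.81 and 1.98 ± 0.81, and Lin28a 0.00 ± 0.62, -1.60 ± 0.62 and 1.08 ± 0.62, for the same 3 differences. The 3 differences share the NT libraries. By their means the order of Lin28a is MLL-AF9, HOXA9, NT and PML-RARa, with HOXA9 and NT level, and Lin28b has the same order. For Igf2bp3 it is MLL-AF9, HOXA9, PML-RARa and NT, for Igf2bp2 MLL-AF9, PML-RARa, HOXA9 and NT, for Igf2bp1 PML-RARa, HOXA9, MLL-AF9 and NT, and for Hmga2 HOXA9, PML-RARa, NT and MLL-AF9. No difference from NT passed the test for any of the 6 genes, and the other differences between neighbours in these orders were not tested one by one. A KO and a WT library are not repeats of a culture, and the adjusted p measures how far a difference between contexts repeats in both.

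The members did not vary as a block over the 8 libraries. Pearson's r of log2(value + 1) ran from -0.59 (Lin28a with Igf2bp1) to 0.64 (Lin28a with Lin28b) over the 15 pairs, and Hmga2 with Igf2bp1 had 0.60. These r values describe 8 libraries that share their contexts and scaling.

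For each gene the 3 transcripts with the most similar pattern were taken from all 10599. Lin28a was followed most closely by Gins1, a subunit of the DNA replication helicase (r = 0.986), Psmc3ip, a recombination cofactor (0.986), and Naa16 (0.986). For Lin28b they were Ccm2l (0.980), 5031425F14Rik (0.953) and Gm10845 (0.950). For Hmga2 they were Prr36 (0.975), Slc35f2 (0.897) and Gm3002 (0.893). Igf2bp1 was followed by Dnm1, a dynamin (0.989), Plekhh3 (0.987) and H60b (0.986). Igf2bp2 was followed by the mitochondrial ribosomal protein gene Mrpl52 (0.977), Spsb1 (0.962) and Cd302 (0.952), and Igf2bp3 by Ogdhl (0.984), the homeobox gene Irx5 (0.966) and the selenoprotein gene Selenon (0.956). These r values were picked as the highest among all of them, and say nothing of shared function.

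Genes of let-7 and microRNA processing were then compared between KO and WT, from a list that does not hold the members. The list is wider than the genes that make or remove let-7, since it also holds Ago and Tnrc6 genes. Dicer1 and Trim71 are in this list and in that of the let-7 targets below. The test was limma on log2(value + 1) with the context as a block, so it asks for a change shared by the 4 contexts. Over all transcripts 6.40% rose and 7.48% fell by limma, 12.0% and 9.05% by edgeR and 16.7% and 12.9% by DESeq2, and the median log2 ratio by limma was -0.03. Of 34 genes in the list 29 were analysed and 21 tested, and 0 rose and 0 fell by limma. There were 5 at an unadjusted p under 0.05, while edgeR called 1 higher and 2 lower and DESeq2 2 higher and 3 lower. The list median was -0.07. Dicer1, the nuclease that cuts the precursor, had a log2 ratio of 0.06 ± 0.21 (SE; adjusted p = 0.84). Tut4 and Tut7, the enzymes that add uridines to the LIN28-bound precursor, had -0.72 ± 0.20 (Tut4, adjusted p = 0.073) and 0.40 ± 0.10 (Tut7, chosen after its values were seen, adjusted p = 0.064), and both were called by edgeR and by DESeq2. The transcript analysed for Dis3l2, the exonuclease that then degrades the precursor, was at 1 or 2 reads in each library, which does not describe the gene as a whole. The same holds for Drosha, whose analysed transcript had 0.827 to 2.12 normalised reads. The 5 let-7 hairpin rows of the tables had values of at most 11.6, and mature let-7 is not measured by these libraries.

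Of 38 reported let-7 target genes 36 were analysed and 28 tested, of which 2 rose and 3 fell in KO by limma, with a list median of -0.01. These counts are near the shares over all transcripts, 6.40% and 7.48%, and are no result about the targets as a group. edgeR called 6 higher and 4 lower, beside 12.0% and 9.05% of all transcripts, and DESeq2 called 8 higher and 5 lower, beside 16.7% and 12.9%. Among the 26 tested genes with an annotated 3′ UTR, 19 held the 7-letter seed match. Those that fell were the insulin-like growth factor receptor gene Igf1r (-0.80 ± 0.11, log2 ratio ± SE, adjusted p = 0.035), the cell cycle phosphatase gene Cdc25a (-1.20 ± 0.21, adjusted p = 0.039) and the ribonucleotide reductase gene Rrm2 (-0.94 ± 0.20, adjusted p = 0.049). Igf1r stood at 1338, 1729, 1183 and 1029.7 in the KO libraries of HOXA9, PML-RARa, MLL-AF9 and NT, against 2198, 2864, 2367 and 1758 in the WT libraries, with no overlap between the groups. Those that rose were the kinase gene Map4k3 (1.28 ± 0.15, adjusted p = 0.035) and the death receptor gene Fas (1.004 ± 0.14, adjusted p = 0.036). Fas stood at 266, 201, 327 and 213 in the KO libraries of the same contexts, against 134, 121, 126 and 112 in the WT libraries. Cdc25a and Rrm2 act in dividing cells. Of 15 tested proliferation genes 11 fell and 0 rose (median log2 ratio -1.27), beside 7.48% and 6.40% of all transcripts. Whether this bears on the fall of Cdc25a and Rrm2 was not tested. Each of the 5 calls was lost without any 1 context, where limma called 0 of 53 genes of the pathway lists (14 to 18 at an unadjusted p under 0.05). In each of these 4 fits all 5 genes kept their sign and stayed at an unadjusted p under 0.05.

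The other targets named for this pathway did not pass the limma test, although DESeq2 called Ccnd1 (adjusted p = 0.027) and Ccnd2 (adjusted p = 0.018). Cyclin D1 (Ccnd1) had a log2 ratio of 2.25 ± 0.79 (SE; adjusted p = 0.11), with 981, 2208, 1637 and 2105 in the KO libraries of HOXA9, PML-RARa, MLL-AF9 and NT, against 832, 1226, 96.4 and 146 in the WT libraries. As for Igf2bp1, the WT libraries of MLL-AF9 and NT are the low ones. Ccnd2 had 0.52 ± 0.21 (adjusted p = 0.15), Cdk6 had -0.54 ± 0.27 (adjusted p = 0.21) and Arid3a, a transcription factor gene of fetal B cell progenitors, had -0.50 ± 0.19 (adjusted p = 0.13). Trim71, a ubiquitin ligase gene of stem cells with 4 matches of 8 bases, had -0.07 ± 0.81 (adjusted p = 0.96). Its values were 100.4, 36.9, 12.3 and 4.16 in the KO libraries of HOXA9, PML-RARa, MLL-AF9 and NT, against 188, 222, 3.18 and 0.827 in the WT libraries. Here too MLL-AF9 and NT were the low WT libraries and the ones that were higher in KO. The values of Trim71 in both contexts lie under 20, and its NT WT value is the lowest entry of that library. How many of all transcripts share this pattern was not counted. Myc was not analysed here.

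**Figure D5:**
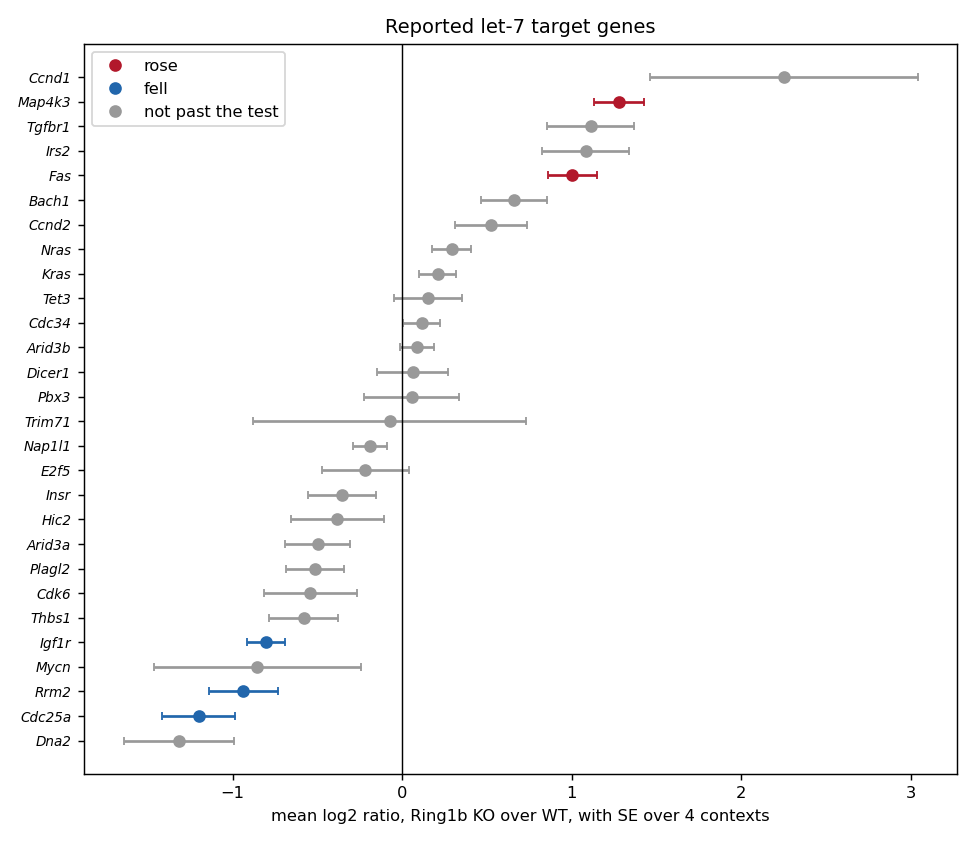
Mean log2 ratio of KO over WT over the 4 contexts, with the SE of the limma fit, for the 28 tested genes of the reported let-7 target list. Colours give the limma result. Map4k3 and Fas are the genes that rose and Igf1r, Cdc25a and Rrm2 those that fell, and the widest bars are those of Ccnd1 and Trim71.

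Transcripts grouped by their matches to the let-7 seed had similar log2 ratios. The median was -0.07 for 111 tested transcripts with 2 or more matches, -0.03 for 856 with 1 match and -0.02 for 9143 with none, the members left out. The share that rose in KO was 7.21%, 6.54% and 6.497% in these groups, and the share that fell was 6.31%, 7.36% and 7.22%.

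Of 19 fetal, imprinted and adult-switch genes, 16 were analysed and 8 tested. By limma 0 rose and 0 fell (4 at an unadjusted p under 0.05), edgeR called 0 and DESeq2 called 0 higher and 1 lower, and the median log2 ratio was -0.41. Plag1, a transcription factor gene that acts on Igf2, had -0.67 ± 0.15 (SE; adjusted p = 0.052), with 65.2, 42.8, 45.02 and 54.0 in the KO libraries of HOXA9, PML-RARa, MLL-AF9 and NT, against 121, 82.3, 56.1 and 79.4 in the WT libraries. It was lower in KO in all 4 contexts, and so was Bcl11a, a repressor of fetal globin genes and the gene called by DESeq2 (-1.25 ± 0.31, limma adjusted p = 0.060, DESeq2 adjusted p = 0.040). Afp, the alpha-fetoprotein gene, was higher in KO in all 4 contexts (0.54 ± 0.14, limma adjusted p = 0.064). Bcl11a and Afp were named after their values were seen. H19, an imprinted RNA that carries let-7 sites, had 0.89 ± 1.02 (adjusted p = 0.55), and Igf2, the growth factor gene after which the IGF2BP proteins are named, had 1.06 to 46.4 normalised reads and was not tested.

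Pluripotency and germ cell markers were looked at because Lin28a is best known from such cells. Of 18 genes 8 were analysed, 6 of which stayed under 20 in all 8 libraries. Their sums were 28.6 to 46.2 in the KO libraries and 47.2 to 104 in the WT libraries, below Lin28a alone in each WT library and in the KO libraries of HOXA9 and MLL-AF9. In the KO libraries of PML-RARa and NT the sums, 28.6 and 42.6, were above Lin28a, which had 14.3 and 31.2. Of the sum of 104, in PML-RARa WT, Utf1 alone made 67.9. Nanog, named after its values were seen, had 4.16 to 9.55 normalised reads in the KO libraries and 8.61 to 13.3 in the WT libraries, and was not tested. Only Dnd1 was tested, with a mean value of 20.3 and a log2 ratio of -0.82 ± 0.20 (SE, limma adjusted p = 0.059). Pou5f1, Zfp42, Sall4 and Esrrb are among the genes that were not analysed. The marker counts below are by limma, by which 6.40% of all transcripts rose and 7.48% fell. Of the erythroid and megakaryocyte markers (8 of 10 analysed, 7 tested) 1 rose and 0 fell, with a median of 0.43. Of the mast cell, basophil and eosinophil markers (8 of 8 analysed and tested) 0 rose and 2 fell, with a median of 0.28. These counts and those of the stem and progenitor markers rest on few genes and are no result about the lists as groups. Of the macrophage markers 10 of 12 tested rose and 0 fell (median 3.95), led by Marco, C1qa, C1qc, C1qb, Mertk, Itgax, Mrc1 and Csf1r (5.63 to 2.34). The proliferation genes that fell were led by Birc5, Aurkb, Foxm1, Kif11, Plk1, Ccnb2, Cdc20 and Ccnb1 (-2.61 to -1.27). Of the stem and progenitor markers 1 of 13 rose (Cd48, 0.78 ± 0.14, log2 ratio ± SE) and 3 fell (Myb, -1.89 ± 0.21, Erg, -1.01 ± 0.13, and Cebpa, -0.72 ± 0.13), with a median of 0.24. The platelet gene Gp9 rose (1.86 ± 0.27), and the eosinophil genes Epx (-3.998 ± 0.27) and Prg3 (-1.93 ± 0.37) fell.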

How the data were processed

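The 4 deposited tables, 1 per context, were used. Per the file headers, the 8 base mean columns are signal, a normalised read count made by the authors for each RefSeq transcript and library. The ratio column is the authors' fold change of OHT over control and the log2 column its logarithm, both as deposited. The p-value column is deposited without adjustment and compares 1 library with 1 library, and it was not used. Per the submitters' processing notes, TopHat, DESeq and mm9 were used (no version or role stated); the read counter is not given in the sources used here.

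Every value was a whole multiple of the lowest value of its library (100% within 0.02), which gave the recovered reads. The lowest entry was 1 in every library, and 15.1% (HOXA9 KO) to 20.0% (MLL-AF9 KO) of transcripts stood at it. Whether an entry of 1 stands for no read was not tested, so counts near 1 and their intervals are uncertain. Tests used two-sided limma fits (limma 3.58.1 in R 4.3.3) of log2(value + 1) over 10599 transcripts with a mean of at least 20, with calls at a Benjamini-Hochberg adjusted p under 0.05. edgeR 4.0.16 and DESeq2 1.42.0 on the recovered reads (2235 and 3130 transcripts called in KO against WT, 1471 by limma) were alternatives. The limma fits and the edgeR fit of KO against WT were tested on simulated data, in which the KO effect was the same in each context. The DESeq2 fits and the edgeR fit between contexts were not. Each SE is that of the limma fit, which draws the variance of a transcript towards that of all transcripts. The limma p-values of KO against WT measure how far the KO over WT ratio repeats across the contexts. Those of the test between contexts measure how far a difference repeats in KO and WT. Members and lists were chosen with earlier results of these data known. Named are all members, up to 8 called genes of each list, 12 genes fixed by name and the 3 transcripts most alike each member. Lists hold 1 transcript per gene, the most abundant, so a low value does not describe the gene as a whole. Sequences came from RefSeq and GENCODE M21 on GRCm38, matched by accession, with no coordinates carried over to mm9.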

Additional observations from a re-analysis of the deposited data

Results flagged for a closer look

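Hmga2, Igf2bp1 and Igf2bp2 were at least 2-fold higher in KO in some contexts and at least 2-fold lower in others, with 1 library pair per context. The widest gap was that of Igf2bp1, whose log2 ratio was 4.37 in NT and -1.51 in PML-RARa, 5.88 apart. For Igf2bp2 the log2 ratio was 3.42 in MLL-AF9 and -1.14 in PML-RARa, 4.56 apart. For Hmga2 it was 1.02 in MLL-AF9 and -1.41 in HOXA9, 2.44 apart. The differences between contexts were not tested, since no context has a repeat library.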

How the results depend on the processing

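The count of let-7 pathway and fetal genes past the limma test was 5 of 53. It was 8 with a pseudocount of 10, 3 with no context block and 0 in each fit that left out a context. With no filter on low values it was 1 of 77. On the recovered reads edgeR called 13 of 53 and DESeq2 19. Over all 10599 transcripts limma called 1471, edgeR 2235 and DESeq2 3130 in KO against WT. The counts in the lists are therefore no result about these genes as a group. For the level of the 6 members between contexts the count was 0 by limma and 3 by DESeq2. The causes were not tested. With another pseudocount, with none or with another scaling, the mean log2 ratio of each measured member moved by less than its spread between contexts. Leaving out 1 context can never move the mean by as much as that spread, so this comparison says nothing there. Without 1 context the mean log2 ratio changed sign for Hmga2 and Igf2bp3. It ran from -0.78 to 0.03 for Hmga2 (above 0 without HOXA9 or PML-RARa) and from -0.04 to 0.87 for Igf2bp3 (below 0 without NT). For Lin28a it ran from -3.16 to -2.33, for Lin28b from -1.45 (without PML-RARa) to -0.38 (without MLL-AF9), for Igf2bp1 from 0.79 (without NT) to 2.75 (without PML-RARa) and for Igf2bp2 from 1.02 (without MLL-AF9) to 2.54 (without PML-RARa). With 1 library per group, no fit within a context was possible, and values under about 20 reads carry wide counting intervals.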

Other observations

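The embryonic beta-like globin gene Hbb-y, picked after its values were seen, had 7.24, 231, 51.8 and 123 normalised reads in the KO libraries of HOXA9, PML-RARa, MLL-AF9 and NT, against 26.6, 201, 2.12 and 5.79 in the WT libraries. Its WT libraries of MLL-AF9 and NT were the low ones, as for Igf2bp1, Ccnd1 and Trim71, while HOXA9 was lower in KO. Both of these WT values of Hbb-y lie under 20, and the share of all transcripts with this pattern was not counted. The mean log2 ratio of Hbb-y was 1.68 ± 1.16 (SE, limma adjusted p = 0.34). H19 had 4.52, 599.8, 1.36 and 384 normalised reads in the same KO libraries, against 23.2, 36.4, 1.06 and 137 in the WT libraries, so it was nearly absent from the MLL-AF9 pair. Mycn, also seen first, had 46.2, 377, 27.3 and 572 in the KO libraries, against 265, 573, 76.2 and 261 in the WT libraries, lower in KO in each transduced context and higher in NT.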
